A study of Mus musculus with 6 samples.

Results

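The genes described here encode the coat of the mouse egg and the proteins through which it meets sperm. They are Zp1, Zp2 and Zp3, the 3 zona pellucida proteins, Astl (ovastacin, an egg protease), Izumo1r (JUNO, the egg receptor for sperm) and Cd9 (a tetraspanin of the egg surface). They were chosen by name, with no threshold on measured values, as the rows of the read-count table with these symbols, and all 6 of 6 were found among 24369 rows. RNA was sequenced from mouse oocytes labelled germinal vesicle stage, the fully grown oocyte that has not yet resumed meiosis. The 6 libraries form 3 groups of 2, given by their labels as control, Sudan I-exposed and Sudan I-exposed with melatonin rescue. Sudan I is an azo dye and melatonin a pineal hormone, and the melatonin group carries the dye exposure as well. The labels state no strain, age, dose, route, duration or number of oocytes per library. They also do not say that both libraries of a group stem from different mice or cultures. Each p-value therefore reflects only how far these samples spread, which may be technical.

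The zona pellucida is a layer of secreted glycoproteins that the growing oocyte lays around itself. ZP2 and ZP3 pair into filaments, ZP1 cross-links them, and sperm bind the finished coat at ZP2. After fertilization the egg releases ovastacin from cortical granules, ovastacin cleaves ZP2, and further sperm no longer bind. At the egg membrane JUNO, held by a lipid anchor, binds IZUMO1 on the sperm head, and CD9 is needed for the membranes to fuse. Transcripts of the zona genes build up during oocyte growth and are among the best known oocyte products.

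Library totals lay between 20669373 and 26065453 counts, and 16203 to 17006 genes were detected per library. Levels are in CPM, counts per 1000000 counts of the library's tested genes, with trimmed-mean (TMM) scaling between libraries. The label was checked against 11 measured oocyte markers: 10 were detected, with Gdf9, an oocyte growth factor, at a mean of 6177 CPM and Mos, a meiotic kinase, at 489 CPM. H1foo, the oocyte linker histone, stood at 2192 CPM, and Oog1 was at 0 counts in every library. Of 20 granulosa and cumulus markers, cells that surround the oocyte, 19 had a count above 0 and 16 passed the count filter. Their summed level ran from 680 to 769 CPM, against 26348 to 28376 CPM for the oocyte markers. The sum was mostly Serpine2, Nr5a2, Esr2 and Gata4, at means of 282, 118, 97.1 and 69.2 CPM. All others averaged at most 47.0 CPM (Inha), with Foxl2 at 3.67, Amhr2 at 3.08, Fshr at 2.51 and Wt1 at 2.37 CPM. The summed level of theca and stroma markers was 4.84 to 10.9 CPM, and that of endothelial markers 103 to 131 CPM. The endothelial sum was mostly Pecam1, at a mean of 86.2 CPM, followed by Tek. The other endothelial markers were lower, with Kdr at a mean of 5.92 CPM, Cdh5 at 0.0598 CPM and Emcn at 0.0291 CPM. Blood and immune markers summed to 0.837 to 1.504 CPM, with the 4 globin genes at 0 counts.

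All 3 zona transcripts were among the most abundant of 14124 tested genes, Zp2 in place 8, Zp3 in place 12 and Zp1 in place 49 by mean CPM. Astl stood in place 119, Izumo1r in place 872 and Cd9 in place 1930. Levels of different genes can be compared only per length. On that scale, CPM per kb of annotated exon sequence, the order was Zp3, Zp2, Zp1, Astl, Izumo1r and Cd9. Zp3 averaged 1854 CPM per kb ± 101 (SD, n = 6 libraries) and Zp2 1230 ± 113. Zp1 averaged 691 CPM per kb ± 57.3 and Astl 335 ± 14.2 (SD, n = 6 each). Izumo1r averaged 106 CPM per kb ± 7.19 and Cd9 63.6 ± 6.56 (SD, n = 6 each). No neighbours in this order overlapped in any library: the lowest Zp3 value was 1745 and the highest Zp2 value 1430 CPM per kb, and the lowest Izumo1r value was 98.4 and the highest Cd9 value 73.6. Per kb, Zp3 was in place 3 of the 13550 tested genes whose symbols matched an annotated length, and Cd9 in place 694.

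The genes lie on 6 chromosomes of mouse genome build GRCm38 (GENCODE M21 annotation, which may differ from the authors' build). Zp1 spans 10914287 to 10920632 on the reverse strand of chromosome 19, Zp2 120126772 to 120145291 on the reverse strand of chromosome 7, and Zp3 135980099 to 135988624 on the forward strand of chromosome 5. Astl spans 127338639 to 127357651 on the forward strand of chromosome 2, Cd9 125460266 to 125494791 on the reverse strand of chromosome 6, and Izumo1r 14885814 to 14903949 on the reverse strand of chromosome 9. The longest coding transcript had 12 exons in Zp1, 18 in Zp2, 8 in Zp3, 9 in Astl, 8 in Cd9 and 5 in Izumo1r, and the longest annotated coding sequence had 623, 713, 424, 435, 226 and 244 codons. Only Cd9 overlapped other annotated genes: 2 on the opposite strand, Gm26728 with 218 bases of shared exon sequence and Gm28809 with 0. The counting is not stated to use strand, so reads of Cd9 and Gm26728 in those bases cannot be told apart.

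Zona genes of the mouse are known targets of FIGLA, an oocyte transcription factor that binds E-boxes (CANNTG) upstream of their starts. The promoter table of RefSeq (GRCm38.p6) held 4 of the 6 genes, Zp3, Astl, Izumo1r and Cd9. The 250 bases before the start are shown because they let the oocyte genes be set beside Cd9, which many tissues express, with each E-box in capitals. The motif is its own reverse complement, so both strands are covered. The positions are chr5:135979855-135980104 (forward strand) for Zp3, chr2:127341386-127341635 (forward) for the second of 2 Astl starts, chr9:14903768-14904017 (reverse) for Izumo1r and chr6:125494761-125495010 (reverse) for Cd9.
Zp3: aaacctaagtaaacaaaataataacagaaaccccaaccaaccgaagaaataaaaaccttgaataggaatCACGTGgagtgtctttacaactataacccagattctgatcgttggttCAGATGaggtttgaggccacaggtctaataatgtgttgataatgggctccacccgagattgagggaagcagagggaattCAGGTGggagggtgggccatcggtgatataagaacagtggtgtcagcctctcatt
Astl, second start: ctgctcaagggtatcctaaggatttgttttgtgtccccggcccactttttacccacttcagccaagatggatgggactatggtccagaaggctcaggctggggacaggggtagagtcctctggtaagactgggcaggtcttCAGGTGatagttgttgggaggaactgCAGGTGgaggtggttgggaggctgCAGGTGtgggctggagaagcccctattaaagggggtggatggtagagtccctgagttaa
Izumo1r: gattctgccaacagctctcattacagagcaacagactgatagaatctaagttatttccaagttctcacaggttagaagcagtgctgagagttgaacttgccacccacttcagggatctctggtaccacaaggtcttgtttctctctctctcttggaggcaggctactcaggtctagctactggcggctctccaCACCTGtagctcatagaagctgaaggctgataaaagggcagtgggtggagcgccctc
Cd9: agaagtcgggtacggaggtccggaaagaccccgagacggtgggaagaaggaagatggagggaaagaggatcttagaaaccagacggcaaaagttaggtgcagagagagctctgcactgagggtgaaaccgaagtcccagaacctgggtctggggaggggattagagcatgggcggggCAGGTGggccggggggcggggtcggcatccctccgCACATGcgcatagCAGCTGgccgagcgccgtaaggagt

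Zp3 held 3 E-boxes, CACGTG beginning 181 bases before the start, CAGATG at 134 and CAGGTG at 55. Astl held the same word, CAGGTG, at 109, 83 and 59 bases before its second start, and no E-box before its first start, which lies at the annotated beginning of the gene 2997 bases upstream. Izumo1r held 1, CACCTG at 57 bases, and Cd9 held CAGGTG at 73, CACATG at 38 and CAGCTG at 25. The start used for Izumo1r lies 182 bases from the beginning of the gene in GENCODE M21, and those of Zp3 and Cd9 lie 6 and 31 bases from it. Of 32851 promoters of this length in the table, 66.2% held at least 1 E-box and 12.2% at least 3, so the motif is common. The form CACCTG or CAGGTG was present in 17.2% of them, at least 3 times in 0.247%, and CACGTG in 6.02%. Such matches are descriptions of letters, and no factor binding was measured.

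**Figure D1:**
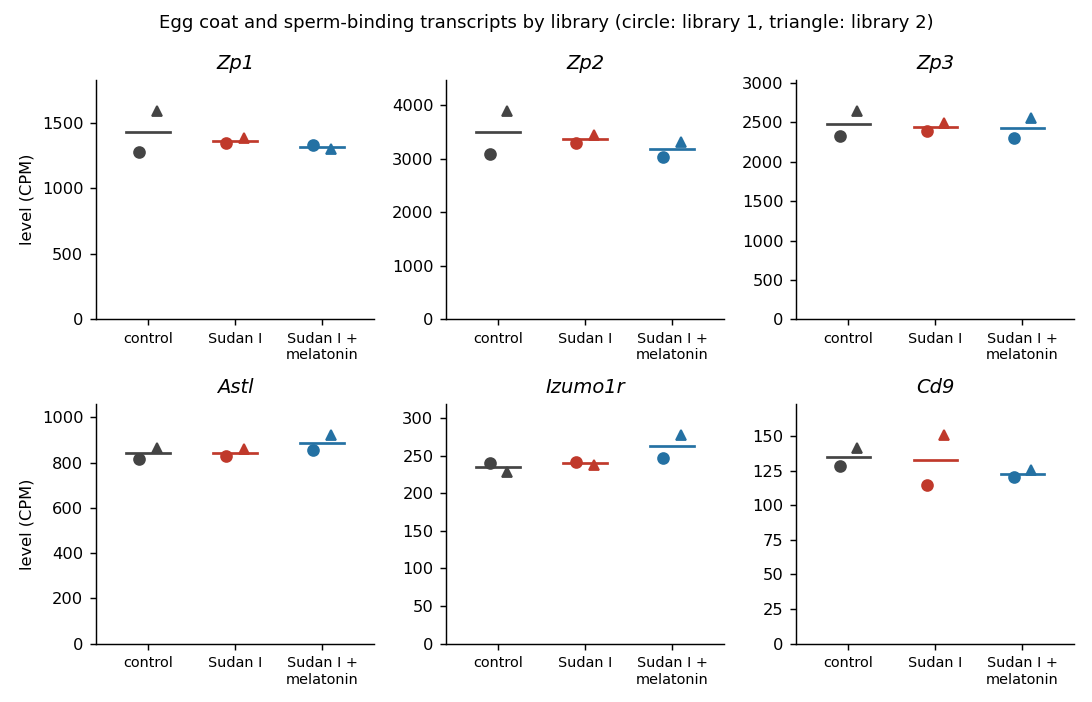
Level in CPM (vertical axes from 0) of each of the 6 transcripts in every library, by group; circles are library 1, triangles library 2 and lines the group mean of 2. The largest gaps within a group are between the control libraries for Zp1 and Zp2 and between the Sudan I libraries for Cd9.

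Setting Sudan I against control asks whether exposure to the dye altered the oocyte's transcripts. None of the 6 egg coat and sperm-binding genes passed the test, and for every one of them the libraries of both groups overlapped. Zp1, the cross-linker of the coat, stood at 1273 and 1588 CPM in the controls (library 1, then library 2), at 1347 and 1379 after Sudan I and at 1325 and 1301 with melatonin added. Zp2, the sperm-binding protein of the coat, stood at 3093 and 3896 CPM in the controls, at 3307 and 3447 after Sudan I and at 3038 and 3325 with melatonin added. Zp3, the partner of ZP2 in the filaments, stood at 2325 and 2646 CPM in the controls, at 2396 and 2489 after Sudan I and at 2308 and 2556 with melatonin added. For each zona gene both Sudan I values lay between the 2 control values, and control library 2 was the highest of all 6.

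The log2 fold change of Sudan I over control was -0.070 for Zp1 (SE 0.11, with a 95% interval from -0.32 to 0.18), -0.049 for Zp2 (SE 0.12, from -0.31 to 0.21) and -0.025 for Zp3 (SE 0.10, from -0.25 to 0.20). All had an edgeR adjusted p of 0.9999 in the quasi-likelihood test, with Benjamini-Hochberg adjustment over all tested genes. All 3 signs turned without control library 2, to 0.099 for Zp1, 0.13 for Zp2 and 0.072 for Zp3, and that of Zp3 also without Sudan I library 1 (0.0049). In bulk RNA, fewer cells of a type and less RNA per cell cannot be told apart.

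Astl, the protease that ends sperm binding, stood at 818 and 867 CPM in the controls, at 828 and 860 after Sudan I and at 856 and 921 with melatonin added. Control and Sudan I overlapped almost fully, and the group means were 842 CPM ± 34.8 and 844 ± 23.2 (SD, n = 2 each). After Sudan I its difference from control on the log2 scale was 0.0029, with SE 0.095, bounds of -0.21 and 0.21 and an edgeR adjusted p of 0.9999, and it turned negative without control library 1 (-0.039) or Sudan I library 2 (-0.025). Izumo1r, the sperm receptor, stood at 240 and 228 CPM in the controls, at 242 and 237 after Sudan I and at 247 and 277 with melatonin added. Control and Sudan I overlapped here too, and the difference was 0.033 (log2), with SE 0.10, bounds of -0.19 and 0.25 and an edgeR adjusted p of 0.9999; without control library 2 it was -0.0023.

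Cd9, the tetraspanin needed for fusion, stood at 128 and 141 CPM in the controls, at 115 and 150 after Sudan I and at 121 and 125 with melatonin added. The Sudan I libraries enclosed the control values and were the lowest and the highest of all 6, a 1.31-fold gap. The counting error of a Cd9 value was 1.64% to 2.02%, well below that gap. The difference between the groups was -0.025 (log2), with SE 0.13, bounds of -0.32 and 0.27 and an edgeR adjusted p of 0.9999. Without Sudan I library 1 it was 0.16, without Sudan I library 2 -0.23, and without control library 2 0.047. Granulosa cells also express Cd9. The summed granulosa level was 682 and 730 CPM in the controls, 698 and 680 after Sudan I and 690 and 769 with melatonin. Single markers moved more than the sum, whose largest part was Serpine2, a protease inhibitor, at a mean of 282 CPM. Inha, an inhibin subunit, stood at 41.8 and 56.7 CPM in the controls, at 41.5 and 21.1 after Sudan I and at 27.8 and 92.9 with melatonin added. Gja1, a gap junction protein, ran from 12.7 to 59.8 CPM and Amh, a granulosa hormone, from 5.24 to 21.7 CPM. The markers did not move together. Inha and Gja1 were lowest in Sudan I library 2 and highest in melatonin library 2. Serpine2 and Nr5a2 were highest in Sudan I library 2, at 308 and 132 CPM. Amh was lowest in melatonin library 1, and Areg was at 0 counts. The part of these cells in the Cd9 values was not tested.

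Over all tested genes edgeR called 1 of 14124 (0.00708%) in Sudan I versus control, so a count of 0 of 6 members is what that background gives. An unadjusted p under 0.05 was found for 0 of 6 members and 447 genes (3.16%, with 1.61% higher and 1.55% lower), and DESeq2 called 0 of 6 members and 12 genes (0.0866%). Libraries of the 2 groups were apart for 0 of 6 members and for 32% of tested genes, 16.1% higher and 15.9% lower. The median log2 fold change was -0.025 over the members and -0.0024 over all tested genes. The median SE was 0.11 for the members and 0.20 over all tested genes. Every member's 95% interval lay within 0.5 of 0 on the log2 scale, and the widest bounds were 0.800-fold and 1.21-fold. The same held for the intervals of 40.4% of tested genes. That share covers genes of all levels and was not matched to the members, which stood in places 8 to 1930 of 14124 by mean CPM.

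**Figure D2:**
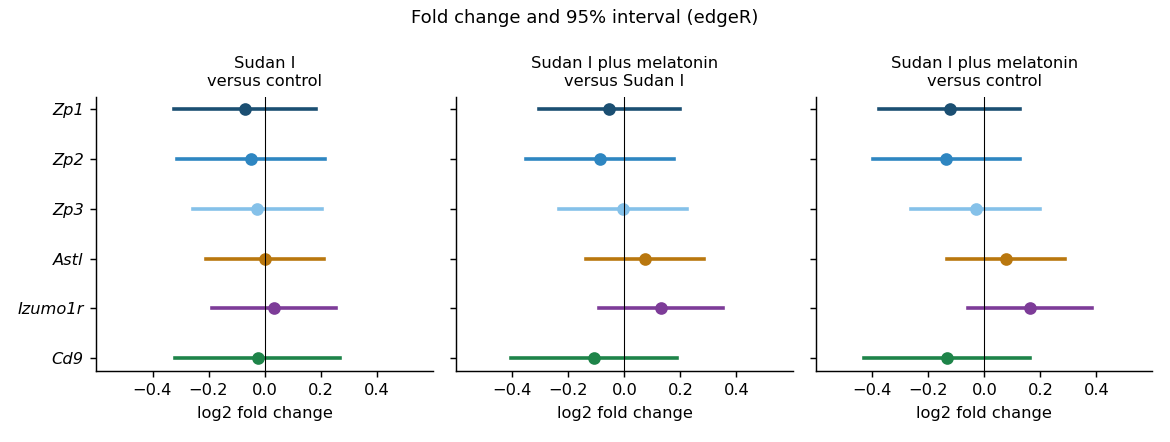
Log2 fold change (points) with its 95% interval (bars) from the edgeR fit for each gene in the 3 comparisons; the vertical line marks 0. All 18 intervals include 0, and they reach at most from -0.43 to 0.38.

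Setting the melatonin group against Sudan I alone asks whether melatonin altered transcripts of exposed oocytes. The melatonin group is also set against control, and these comparisons share the melatonin libraries. Again no member passed the test. Izumo1r came nearest: both melatonin libraries, at 247 and 277 CPM, stood above the other 4, which ran from 228 to 242. Its mean was 262 CPM ± 20.95 with melatonin, 240 ± 2.99 with Sudan I alone and 234 ± 8.34 in control (SD, n = 2 each). The difference was 0.13 (log2) over Sudan I, with SE 0.10, bounds of -0.092 and 0.35 and an edgeR adjusted p of 0.994. Over control it was 0.16, with SE 0.10, bounds of -0.059 and 0.38 and an edgeR adjusted p of 0.956. Of all tested genes, 7.55% had both melatonin libraries above the other 4. Without melatonin library 2 the values were 0.047 and 0.079.

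Astl, which like Izumo1r was highest in melatonin library 2, had a mean of 888 CPM ± 46.2 with melatonin (SD, n = 2). Its melatonin and Sudan I libraries overlapped. The log2 fold change was 0.074 over Sudan I (SE 0.095, edgeR adjusted p = 0.994) and 0.077 over control (SE 0.095, edgeR adjusted p = 0.956). Without melatonin library 2 these values were 0.022 and 0.024, and without melatonin library 1 they were 0.13 and 0.13.

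The zona transcripts and Cd9 had negative values in both comparisons. Zp1 had a log2 fold change of -0.054 over Sudan I (SE 0.11) and -0.12 over control (SE 0.11). Zp2 had -0.086 (SE 0.12) and -0.14 (SE 0.12), and Zp3 -0.0061 (SE 0.10) and -0.031 (SE 0.10). Cd9 had -0.11 (SE 0.13) and -0.13 (SE 0.13), and both its melatonin libraries lay below both control libraries. For these 4 genes the edgeR adjusted p ran from 0.956 to 0.999. Without control library 2 the values over control were 0.045 for Zp1, 0.040 for Zp2 and 0.065 for Zp3. Without melatonin library 1 Zp3 had 0.071 over Sudan I and 0.045 over control, and without Sudan I library 2 Zp3 and Cd9 had 0.020 and 0.099 over Sudan I.

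Across all genes edgeR called 0 of 14124 (0%) for melatonin versus Sudan I and 1 (0.00708%) for melatonin versus control, with 0 of 6 members in each. An unadjusted p under 0.05 was found for 541 genes (3.83%, with 1.78% higher and 2.05% lower) and 650 genes (4.6%, with 1.78% higher and 2.82% lower), and 0 members in each. DESeq2 called 9 (0.0637%) and 12 (0.0866%) genes and 0 members. Libraries of the 2 groups were apart for 2 of 6 members in each comparison, Zp1 and Izumo1r against Sudan I and Cd9 and Izumo1r against control. Izumo1r was the higher one and the others lower. The shares over all tested genes were 30.7% (14.8% higher, 15.9% lower) and 33.5% (16.5% higher, 17% lower), so these counts are near the background. The median log2 fold change of the members was -0.030 and -0.077, beside -0.0060 and -0.0051 over all tested genes. All 6 intervals lay within 0.5 of 0 in each comparison, and over all 3 comparisons they ran from 0.742-fold to 1.30-fold. Of the intervals of tested genes, 38.2% and 37.6% lay within 0.5 of 0, again with no matching for level.

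**Figure D3:**
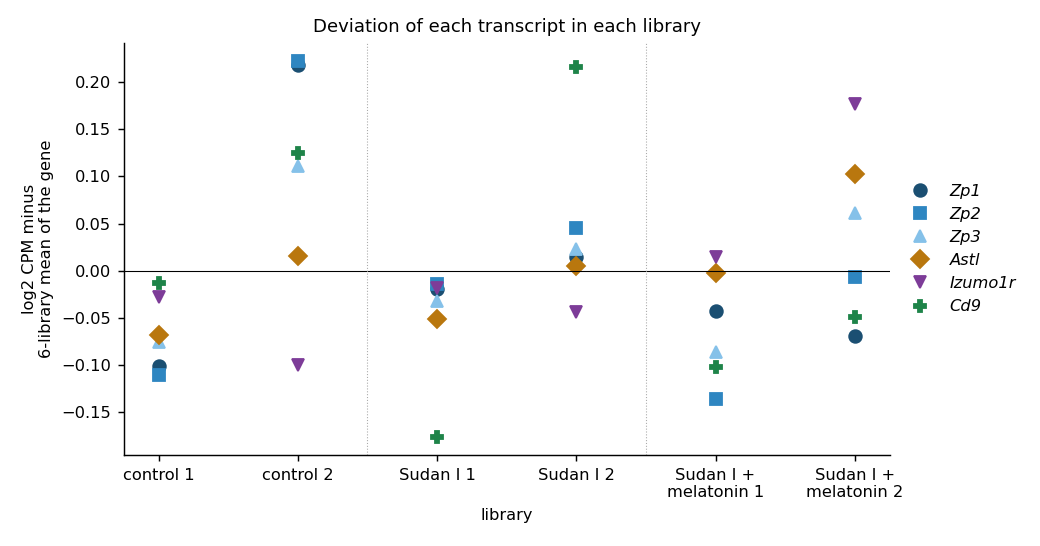
Log2 CPM of each gene minus its mean over the 6 libraries (vertical axis), for each library (horizontal axis). Zp1, Zp2, Zp3 and Cd9 are high in control library 2, where Izumo1r is lowest, and Izumo1r and Astl are highest in melatonin library 2.

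The members did not vary as 1 block across libraries. Zp1 and Zp2 followed each other most closely: in control library 2 they stood 0.22 and 0.22 above their 6-library means on the log2 scale, in control library 1 they stood 0.10 and 0.11 below, and the root mean square difference of their centred profiles was 0.048. Zp3 and Astl were the next closest pair at 0.055, followed by Zp2 and Zp3 at 0.060, Astl and Izumo1r at 0.064 and Zp1 and Zp3 at 0.072. The widest was 0.19, for Cd9 and Izumo1r. The median over 9230 other genes of at least 5 CPM was 0.17 to Zp1 and 0.18 to Zp2. Izumo1r had its lowest value in control library 2, where the zona genes had their highest.

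By this measure over 6 libraries, the genes whose profiles were most like a member's were none of the other members. They were Eif2a and Elovl1 for Zp1 (0.029 and 0.030), Fbxw18 and Ddx51 for Zp2 (0.027 and 0.027), and Fzr1 and Mina for Zp3 (0.017 and 0.023). For Astl they were Med29 and Sympk (0.016 and 0.019), for Izumo1r Atp5b and Cyth2 (0.021 and 0.021) and for Cd9 Xrcc5 and Prmt7 (0.032 and 0.039). Zp2 was in place 19 of 9230 for Zp1, and Zp1 in place 17 for Zp2. With 9230 candidates and 6 libraries, close profiles of this kind are a description only.

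The proportions of the zona transcripts could be compared within each library, where scaling cancels. Per kb, Zp1 stood to Zp2 at 0.5658 and 0.5605 in the controls, 0.5600 and 0.5501 after Sudan I and 0.600 and 0.538 with melatonin. Zp2 stood to Zp3 at 0.646 and 0.715 in the controls, 0.670 and 0.673 after Sudan I and 0.639 and 0.632 with melatonin. Zp1 stood to Zp3 at 0.366 and 0.401, 0.375 and 0.370, and 0.383 and 0.340 in the same order. For Zp2 to Zp3 both melatonin libraries were the lowest of the 6. For Zp1 to Zp2 both Sudan I libraries lay below both controls, by 0.5600 against 0.5605 at the nearest, and the melatonin libraries enclosed the other 4. For Zp1 to Zp3 all groups overlapped. No background was computed for ratios. For levels, libraries of 2 groups were apart for 30.7% to 33.5% of tested genes, depending on the comparison. The coefficient of variation over the 6 libraries was 3.70% for Zp1 to Zp2, 4.63% for Zp2 to Zp3 and 5.43% for Zp1 to Zp3, beside 8.29%, 9.18% and 5.46% for the levels of Zp1, Zp2 and Zp3.

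**Figure D4:**
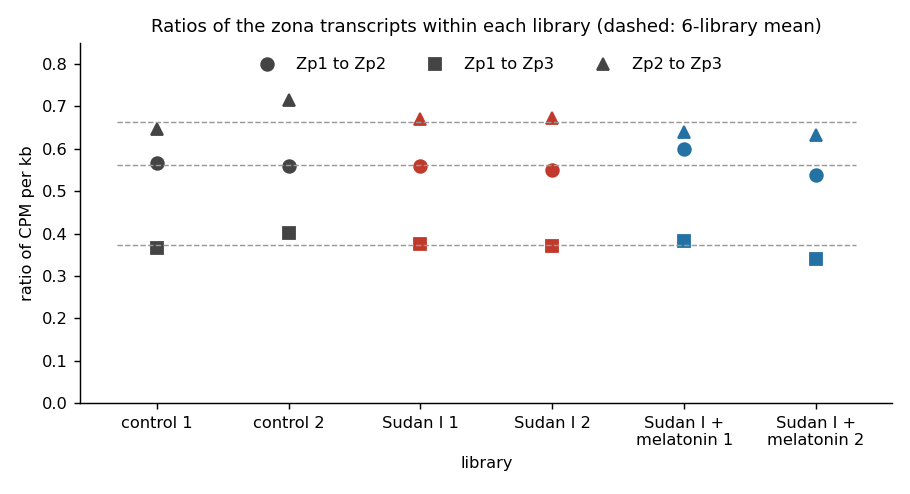
Ratio of CPM per kb between zona transcripts (vertical axis from 0) in each library; colours are the groups, shapes the ratios, and dashed lines the 6-library means of 0.562, 0.373 and 0.663. The points of each ratio stay near 1 level in all 6 libraries.

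Genes that make, process or act beside these proteins were taken from 9 lists, 101 distinct tested genes in all, and edgeR called 0 of them in each of the 3 comparisons. Those with an unadjusted p under 0.05 numbered 4 (3.96%) in Sudan I versus control, 9 (8.91%) in melatonin versus Sudan I and 7 (6.93%) in melatonin versus control, beside 3.16%, 3.83% and 4.6% of all tested genes. Below, each list's median log2 fold change is given for these comparisons in that order; over all tested genes the medians were -0.0024, -0.0060 and -0.0051.

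Transcription factors and proteases upstream of the coat had 12 of 12 members tested, with medians of -0.086, 0.00027 and -0.042. Nobox, an oocyte homeobox factor, averaged 740 CPM, Lhx8, another, 301 CPM and Furin, a protease of the kind that trims zona precursors, 593 CPM. Figla itself, named after its values were seen, averaged 17.8 CPM and ran from 13.6 to 20.9, with a log2 fold change of -0.16 in Sudan I (SE 0.22). The 1 member at an unadjusted p under 0.05 was Tcf12, an E-box binding partner, at -0.51 in melatonin versus control (SE 0.16, edgeR adjusted p = 0.956).

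Relatives of ovastacin and its inhibitor had 4 of 6 members tested. Fetub, which encodes fetuin-B, a blood protein that inhibits ovastacin, averaged 127 CPM in these oocytes and ran from 115 to 147. Its log2 fold change was 0.16 in Sudan I over control (SE 0.12) and 0.20 in melatonin over control (SE 0.12), with edgeR adjusted p of 0.9999 and 0.956. The other tested astacin proteases were Tll1 at 25.9 CPM, Mep1b at 4.65 CPM and Bmp1 at 0.484 CPM, and Bmp1 had an unadjusted p under 0.05 in Sudan I versus control, at -1.97 (SE 0.76, edgeR adjusted p = 0.9999). The list's medians were 0.0023, 0.20 and 0.090.

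Cortical granules, the store of ovastacin, depend on vesicle transport and fusion genes, of which 19 of 20 were tested, with medians of 0.0054, 0.00060 and -0.025. Myo5b, a vesicle motor, averaged 952 CPM, Calr, the chaperone calreticulin, 786 CPM and Nsf, a fusion factor, 448 CPM. In melatonin versus Sudan I, 2 members were lower at an unadjusted p under 0.05 and 0 higher: Vamp3, a vesicle fusion protein, at -0.47 (SE 0.18) and Rab27b at -3.08 (SE 1.20), the latter averaging 0.453 CPM. Both were again lower in melatonin versus control, where Stx4a was higher at 0.60 (SE 0.26), and the edgeR adjusted p were 0.994 and 0.956 in these comparisons.

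Partners of CD9 on the egg membrane had 9 of 9 members tested, with medians of -0.035, 0.12 and -0.13. Itga6 averaged 173 CPM, Itga9 155 CPM and Itgb1 93.0 CPM, all integrin chains. Ptgfrn, which binds CD9, stood at 64.5 and 97.3 CPM in the controls, at 44.7 and 49.0 after Sudan I and at 75.7 and 34.8 with melatonin added. Both Sudan I values lay below both control values, while one melatonin value lay between the controls and the other below all 5 remaining libraries. Sudan I and control libraries were apart for 32% of tested genes, 15.9% with Sudan I lower. Ptgfrn was named for its small unadjusted p. Its log2 fold change in Sudan I was -0.79 (SE 0.30, edgeR adjusted p = 0.9999). Itga6 had -0.55 in melatonin versus Sudan I (SE 0.24, edgeR adjusted p = 0.994), with overlapping libraries, and Itga3, at a mean of 0.782 CPM, was also at an unadjusted p under 0.05 in both melatonin comparisons. Cd81, the tetraspanin closest to CD9 in egg function and named after its values were seen, averaged 4.41 CPM.

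Among 19 of 23 tetraspanins tested, medians were 0.13, -0.032 and 0.097. Tspan14 averaged 303 CPM, Tspan33 103 CPM and Tspan9 86.7 CPM; Cd9, which was not counted in this list, averaged 130 CPM. Tspan12 had -0.67 in melatonin versus Sudan I (SE 0.20, edgeR adjusted p = 0.994) and Tspan9 0.25 in melatonin versus control (SE 0.11, edgeR adjusted p = 0.956). Of the 10 other genes with a zona pellucida domain 4 were tested, the highest Tgfbr3 at 18.01 CPM, Dmbt1 at 8.26 CPM and Zpld1 at 1.68 CPM, with list medians of 0.093, 0.023 and -0.18. Per kb, Tgfbr3 averaged 2.75 CPM against 691 CPM for Zp1.

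JUNO belongs to the folate receptor family but does not bind folate. Its relatives Folr1 and Folr2 averaged 0.179 and 0.082 CPM, too low to be tested, beside 245 CPM for Izumo1r. The lipid anchor that holds JUNO is made by genes of which 27 of 28 were tested, with medians of 0.012, -0.090 and -0.017. Pigq averaged 135 CPM, Pigs 69.3 CPM and Pigf 46.1 CPM, all parts of anchor synthesis or attachment. Pigyl, an anchor synthesis gene, stood at 33.9 and 30.0 CPM in the controls, at 25.5 and 25.9 after Sudan I and at 38.7 and 41.1 with melatonin added. Pigyl was named for the smallest unadjusted p of its list. Its melatonin libraries were the highest and its Sudan I libraries the lowest, and these 2 groups were apart for 30.7% of tested genes. The log2 fold change over Sudan I was 0.63 (SE 0.14, edgeR adjusted p = 0.994). Dpm2 had 0.42 (SE 0.15) and Pgap1, which remodels the anchor, -0.55 (SE 0.20) in the same comparison, both with an edgeR adjusted p of 0.994. Pgap1 also had 0.45 in Sudan I versus control (SE 0.20). Pgap2, another remodelling gene, named after its values were seen, had 0.50 in Sudan I versus control (SE 0.20) and -0.44 in melatonin versus Sudan I (SE 0.20). All 4 of these values had an unadjusted p under 0.05, with edgeR adjusted p of 0.9999 and 0.994 in these comparisons, which share the Sudan I libraries.

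**Figure D5:**
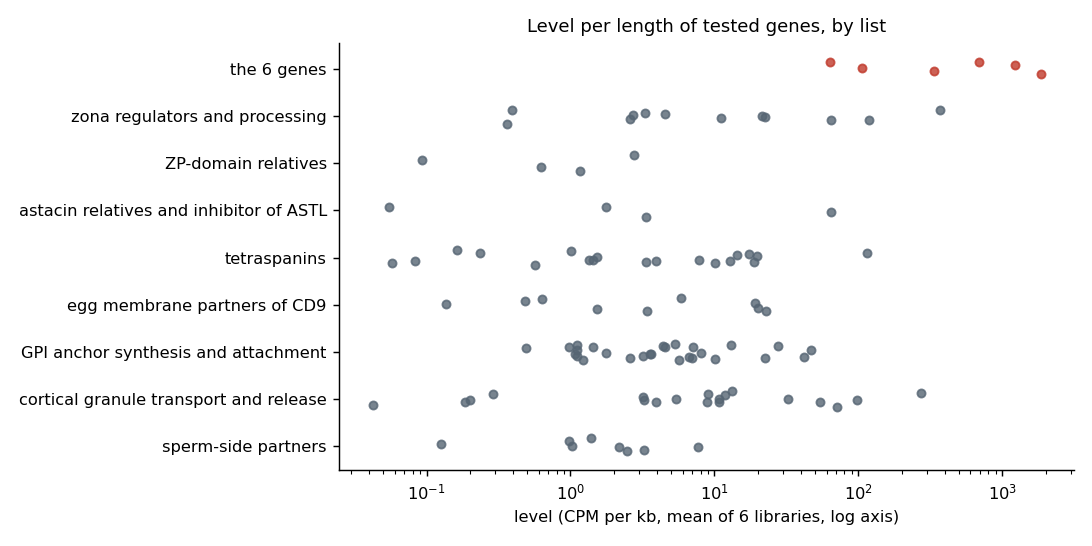
Mean level per length over 6 libraries (CPM per kb, log axis) of the 6 genes and of the tested genes of each list, 1 point per gene. The 6 genes run from 63.6 to 1854 CPM per kb; in the lists the highest is Nobox at 368 CPM per kb.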

How the data were processed

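Raw counts of 6 libraries for each gene symbol came from 1 table deposited by the authors; per the labels' protocols, libraries followed Illumina's standard preparation. Aligner, counter, build and annotation: not given in the sources used here. A date replaced the symbol in 27 rows (0.256% of counts), which were tested but not named. Of 24367 distinct symbols 23203 matched GENCODE M21 (GRCm38). The tests used edgeR 4.0.16 under R 4.3.3 (filterByExpr, minimum count 10; TMM; 1 quasi-likelihood fit of 6 libraries, 3 residual degrees of freedom; Benjamini-Hochberg adjusted p under 0.05 over 14124 genes), checked on simulated counts. Alternatives were DESeq2 1.42.0, limma-voom 3.58.1, other scalings, no filter, 4 libraries, a replicate block and leaving out each library. SE and 95% intervals are from the fit, SD is over libraries, and counting errors cover counting only. An exact two-sided permutation test of 2 against 2 cannot give a p under 0.333 and was not used. Members and lists were chosen with earlier results of these data known. Named genes were the members, each list's 3 highest and up to 3 of smallest p under 0.05, and 2 genes of most similar profile per member; Figla, Cd81, Pgap2, Izumo1 and single markers were named after their values were seen. Protein sequences and the Zp1 and Zp2 promoters are not used here.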

Additional observations from a re-analysis of the deposited data

How the results depend on the processing

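No member was called under any alternative. Of 234 member fold changes recomputed, 217 kept their sign and 17 did not, 16 of these when a library was left out. Most of the 234 kept every library of the groups compared, so the share that kept its sign says little about how stable the directions are. The unadjusted p was under 0.05 in 3, Zp1 and Zp2 (-0.27 and -0.29) without control library 1 and Izumo1r (0.25) without melatonin library 1, all for melatonin versus control. Leaving out each library moved the log2 fold change of Sudan I versus control from -0.22 to 0.099 for Zp1, -0.21 to 0.13 for Zp2, -0.12 to 0.072 for Zp3, -0.039 to 0.046 for Astl, -0.23 to 0.16 for Cd9 and -0.0023 to 0.069 for Izumo1r. For melatonin versus Sudan I it ran from -0.080 to 0.071 for Zp3 and -0.29 to 0.099 for Cd9, and for melatonin versus control from -0.27 to 0.045 for Zp1, -0.29 to 0.040 for Zp2 and -0.12 to 0.065 for Zp3. Without a filter on low counts Astl in Sudan I versus control had -0.00019.

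Over all genes the counts called in the 3 comparisons, 1, 0 and 1, were 12, 9 and 12 with DESeq2 and 88, 67 and 93 without a count filter, of which the filter removes 1, 0 and 0; the cause was not tested. Leaving out each library gave 1 to 4, 0 to 1 and 1 to 3. With the replicate number as a block they were 1, 0 and 1; deviations of same-numbered libraries correlated at 0.053, 0.069 and -0.062 across genes, so the numbers were not taken to pair samples. Using the longest transcript as length, the levels were 1400 for Zp2, 361 for Astl, 190 for Izumo1r and 106 CPM per kb for Cd9, in the same order, and the ratios 0.499 for Zp1 to Zp2 and 0.754 for Zp2 to Zp3. Of the 5 starts with a promoter 4 held an E-box; CACGTG alone was in 1, CATCTG or CAGATG in 1. With 2 libraries a group, changes within the printed intervals are not excluded. The intervals are for single genes, without adjustment over all tested genes, so larger changes could also go uncalled. Pigyl, at 0.63 in melatonin versus Sudan I (SE 0.14), had an edgeR adjusted p of 0.994.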

Other observations

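Transcripts of sperm-side genes, among them markers of male germ cells, were mostly at or near 0. Of 24 sperm-side genes measured, 8 were tested, and Izumo2, Izumo3, Spaca4, Acr and Tnp1 had 0 counts in all 6 libraries, which allows up to 0.114 to 0.148 CPM per library (3 counts). Izumo1, the partner of JUNO, had 5 counts over all libraries. The highest were Spam1, a hyaluronidase of the sperm head, at 16.9 CPM (15.1 to 18.6 over the 6 libraries), Zp3r, which encodes an acrosomal protein, at 5.25 CPM and Tmem81 at 4.36 CPM. For Spam1 the log2 fold change was 0.019 in Sudan I versus control (SE 0.17, edgeR adjusted p = 0.9999). The list had medians of 0.10, -0.27 and -0.079 in Sudan I versus control, melatonin versus Sudan I and melatonin versus control, and 0 members at an unadjusted p under 0.05 in each; edgeR and DESeq2 both called 0. The male germ cell markers of this list and others summed to 2.39 to 6.49 CPM per library, with Prm2 at a mean of 2.87 CPM.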
